A study of Mus musculus with 2 samples.

Results

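In a mouse embryonic fibroblast line without Lsh, 959 of 11227 autosomal regions carrying trimethylation of lysine 4 of histone H3 (H3K4me3) shared no base with any region of the wild-type line, 8.54% of all regions of that library. Regions were chosen from read counts in 200 bp windows on chromosomes 1 to 19: windows of at least 6 reads were joined across gaps of up to 1000 bp, and a joined region was kept when its windows summed to at least 20 reads. A region of the Lsh-/- line (Lsh_KO) belongs to the set when no region built the same way from the Lsh+/+ line (WT) touches it. The remaining 10268 Lsh_KO regions are called shared, and 581 of 10876 WT regions were found only in WT. Each genotype had 1 library, made from 20000000 cells of 1 fibroblast line by digestion with micrococcal nuclease and precipitation with an antibody against H3K4me3, with no input library used here. Both lines were grown in DMEM with fetal bovine serum and carry no label of a treatment, time or age. The labels do not give the strain, the deleted part of the gene or whether a line is 1 clone. With 1 library per genotype no test of genotype was possible, and a difference between these lines cannot be told apart from a difference due to Lsh. Intervals below are exact Clopper-Pearson 95% intervals of counting error alone. The reads were amplified and carry no molecular identifiers, so they do not stand for separate molecules.

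H3K4me3 is laid down around the start sites of active and poised genes by SET1 and MLL enzymes, which are drawn to unmethylated CpG-rich DNA. Methylated CpG and H3K4me3 rarely occupy the same promoter, because the ADD domain of the de novo DNA methyltransferases binds histone H3 only when lysine 4 is unmodified. Lsh, encoded by Hells, is an SNF2-type chromatin remodeller on which normal DNA methylation depends, and fibroblasts without it have lost methylation at repeats and at many promoters.

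The genes at these regions were found by matching the reads, turned into reference bases, to promoter sequences of RefSeq (GRCm38.p6), so that no coordinate was carried between builds. The sequences printed here show the range of DNA in the set, with every CpG in capitals. The first group gives the 250 bases before the start of 5 matched genes, read 5′ to 3′ on the gene's strand. Platr20 (chr11:51220419-51220668, minus strand), Slc38a4 (chr15:97055957-97056206, minus strand), Cxcl15 (chr5:90794284-90794533, plus strand) and Krt18 (chr15:102027966-102028215, plus strand) stand for matched regions with few or no WT reads, and Sp8 (chr12:118846983-118847232, plus strand) for a CpG island.
Platr20: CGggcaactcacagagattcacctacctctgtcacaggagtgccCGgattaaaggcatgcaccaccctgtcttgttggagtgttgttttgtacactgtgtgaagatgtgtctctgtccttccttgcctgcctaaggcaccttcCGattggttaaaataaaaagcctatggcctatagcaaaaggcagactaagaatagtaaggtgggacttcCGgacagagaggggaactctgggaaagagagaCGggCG
Slc38a4: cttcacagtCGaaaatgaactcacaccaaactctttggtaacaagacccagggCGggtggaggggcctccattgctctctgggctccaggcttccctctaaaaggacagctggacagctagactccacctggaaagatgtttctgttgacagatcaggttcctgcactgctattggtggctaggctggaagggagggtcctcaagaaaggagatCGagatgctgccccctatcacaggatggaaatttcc
Cxcl15: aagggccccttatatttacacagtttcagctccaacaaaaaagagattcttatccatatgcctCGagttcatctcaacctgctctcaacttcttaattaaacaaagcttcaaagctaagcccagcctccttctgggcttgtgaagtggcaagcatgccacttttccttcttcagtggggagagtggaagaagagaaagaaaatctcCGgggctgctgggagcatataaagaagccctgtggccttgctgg
Krt18: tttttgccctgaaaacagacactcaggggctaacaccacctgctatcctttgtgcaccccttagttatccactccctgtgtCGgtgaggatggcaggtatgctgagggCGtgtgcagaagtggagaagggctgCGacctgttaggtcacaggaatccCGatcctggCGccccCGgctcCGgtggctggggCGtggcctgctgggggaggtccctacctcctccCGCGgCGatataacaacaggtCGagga
Sp8: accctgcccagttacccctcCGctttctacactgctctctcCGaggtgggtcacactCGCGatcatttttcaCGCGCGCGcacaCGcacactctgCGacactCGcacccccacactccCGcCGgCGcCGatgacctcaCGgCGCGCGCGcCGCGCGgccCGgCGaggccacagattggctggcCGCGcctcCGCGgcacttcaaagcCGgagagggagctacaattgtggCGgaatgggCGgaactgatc
These promoters held 6, 3, 2, 12 and 32 CpG. The second group gives the longest stretch covered by reads, on the plus strand of build mm8, in 3 of the regions with the highest lower bounds of the ratio and no matched promoter. They lie at chr8:77729171-77729324, chr17:37603907-37604070 and chr15:88424261-88424485.
Chromosome 8 region: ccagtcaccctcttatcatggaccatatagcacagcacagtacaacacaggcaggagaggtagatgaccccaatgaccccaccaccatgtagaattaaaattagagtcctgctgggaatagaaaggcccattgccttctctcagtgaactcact
Chromosome 17 region: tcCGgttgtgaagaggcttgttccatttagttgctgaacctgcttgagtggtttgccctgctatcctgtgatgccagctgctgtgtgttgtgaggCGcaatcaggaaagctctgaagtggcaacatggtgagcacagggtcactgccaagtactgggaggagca
Chromosome 15 region: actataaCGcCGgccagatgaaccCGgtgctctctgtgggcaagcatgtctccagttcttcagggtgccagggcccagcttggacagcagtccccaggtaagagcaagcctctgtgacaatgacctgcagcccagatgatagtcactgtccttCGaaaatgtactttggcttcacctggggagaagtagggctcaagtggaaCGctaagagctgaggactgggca
These stretches of 154, 164 and 225 bases held 0, 2 and 5 CpG, far from the composition of the Sp8 promoter.

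The window lists held 3939943 autosomal reads for WT and 4401020 for Lsh_KO. Regions took 28.5% of the window reads in WT and 38.8% in Lsh_KO. The median shared region had 1.48 times as many reads in Lsh_KO as in WT, a shift of 0.57 on the log2 scale. Scaled ratios of regions below are relative to this median. Flank and background ratios have another scale, the total reads of each library outside regions. Of the fibroblast markers chosen for the check of the cell type, 10 of 16 had a promoter placed by reads, and 6 of these were matched to shared regions. Vim had 453 Lsh_KO and 272 WT reads in the 2 kb around its start, and Twist2 had 199 and 133. The 3 markers with fewer Lsh_KO than WT reads before any scaling were Col1a2 (22 and 96), Fbn1 (85 and 131) and Tcf21 (5 and 9). Reads around starts, here and below, are not divided by the median ratio of shared regions. Blood markers with a placed promoter (3 of 10) had at most 5 reads in either library, and muscle markers (4 of 7) at most 7. Of the endothelial markers, Kdr had 104 and 59 reads and was matched to a shared region, and Tek had 2 and 8. Neural markers had at most 18 reads in Lsh_KO and 28 in WT, pluripotent or trophoblast markers at most 10 and 17, and epithelial markers are described with the gene lists.

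The regions were narrow and held few reads. Their median was 34 reads in Lsh_KO (quartiles 25 and 48, highest 470) against 14 in WT (quartiles 9 and 20, highest 56), over a median width of 800 bp. Shared regions had a median of 142 Lsh_KO and 95 WT reads over 1600 bp. Together the set covered 845.0 kb and held 41183 Lsh_KO and 14087 WT reads. The scaled ratio had a median of 1.77 (log2 0.82, quartiles 0.31 and 1.56). These counts chose the set, so they describe it and support nothing.

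**Figure D1:**
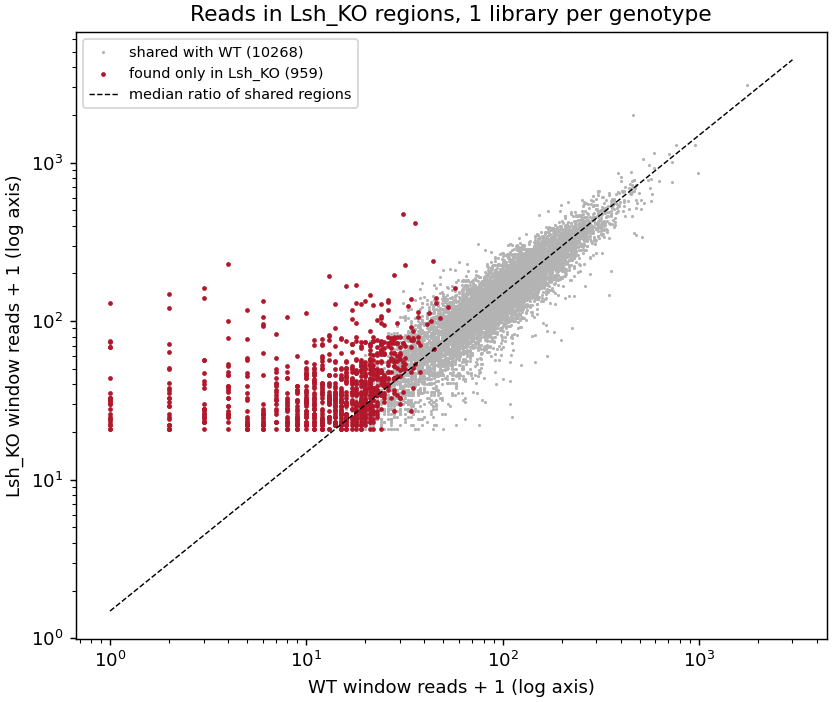
Reads of each Lsh_KO region in WT (x axis, reads + 1) and Lsh_KO (y axis, reads + 1), both on log axes; red points are the 959 regions without a WT region, grey points the 10268 shared regions, and the dashed line is the median ratio of shared regions. Red points spread from 0 to 56 WT reads, and many lie next to the grey points.

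Few of these regions were empty in WT. WT had 0 reads in 26 of them, 1 to 3 reads in 74, and a window of at least 6 reads in 611. At least 20 WT reads were present in 258, of which 13 had no window of 6 reads. The scaled ratio was above 1 in 847 of the 959 regions, and its interval lay above 1 in only 432 (45.0%). All Lsh_KO regions had a median ratio of 1.02. An Lsh_KO region was at least 2-fold higher on the scaled ratio, with an interval above 1, in 361 of 959 cases, against 3.74% of all Lsh_KO regions. With scaling by all window reads the count was 561, against 9.48% of all regions. When only the WT limits were lowered, to windows of 4 and regions of 14 reads, 456 of the 959 were left, with medians of 32 Lsh_KO and 9 WT reads. Building regions from the read lists with 1 read per position and strand gave 1513 regions without a WT region.

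The limits of the rule passed through a continuum. The 51 regions with exactly 20 Lsh_KO reads, just inside, had 0 to 23 WT reads with a median of 8, and 58 joined Lsh_KO stretches of 19 reads with no WT region, just outside, had a WT median of 9.5. On the WT side, 32 regions touched WT windows that joined to 19 reads, and they had medians of 44 Lsh_KO and 23 WT reads. The 40 shared regions that touched a WT region of exactly 20 reads had medians of 33.5 and 23.5.

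A start site was matched to 277 of the 903 regions outside chromosome 18, a share of 30.7% (27.7 to 33.8). Promoters of chromosome 18 were not analysed here. The share was 65.0% in shared regions. A match needs at least 2 read positions in the promoter, from either library, so regions of 20 to 60 Lsh_KO reads are a closer comparison. Their read numbers still differ, with medians of 31 Lsh_KO and 14 WT reads in the set and 44 and 35 in shared regions. Among regions of 20 to 60 Lsh_KO reads the share was 27.9% (24.7 to 31.2) in the set and 39.4% (36.6 to 42.3) in shared regions. In regions found only in WT it was 31.0%. The matches named 293 genes, 1.8% of the 16306 genes with a placed promoter. A protein-coding gene was among the matches of 241 of the 277 matched regions (87.0%), of 6173 of 6495 matched shared regions and of 153 of 178 matched WT-only regions.

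Distances to the nearest placed start were taken over all regions outside chromosome 18, matched ones included. A placed start was more than 10 kb away for 41.2% of the 903 regions of the set. Among regions of 20 to 60 Lsh_KO reads the share was 43.8% (40.2 to 47.3) in the set and 29.6% (27.0 to 32.4) in shared regions, which hold more reads. In WT-only regions it was 40.1%. For 98 regions (10.9%, and 11.6% of those of 20 to 60 reads) the distance exceeded 100 kb. This share was 7.98% in shared regions of 20 to 60 reads and 9.23% in WT-only regions. A start that no read matched could not be placed, so these distances are upper limits.

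Reads were then laid out around the matched starts. A match needs reads in the promoter window, from 250 bases before to 50 after the start, and the level chose the set, so reads at these starts and their difference between libraries describe the set only. Within 2 kb on either side, Lsh_KO held 35.3 distinct reads per start and WT 15.6. In both libraries the highest 100 bp bin was the one from 100 to 200 bp after the start, at 3.70 reads per start in Lsh_KO and 1.57 in WT. Reads after the start made up 65.6% in Lsh_KO and 62.1% in WT. The highest bin lay outside the window used for matching. Shared regions of 20 to 60 reads had 33.3 Lsh_KO and 30.9 WT reads per start.

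**Figure D2:**
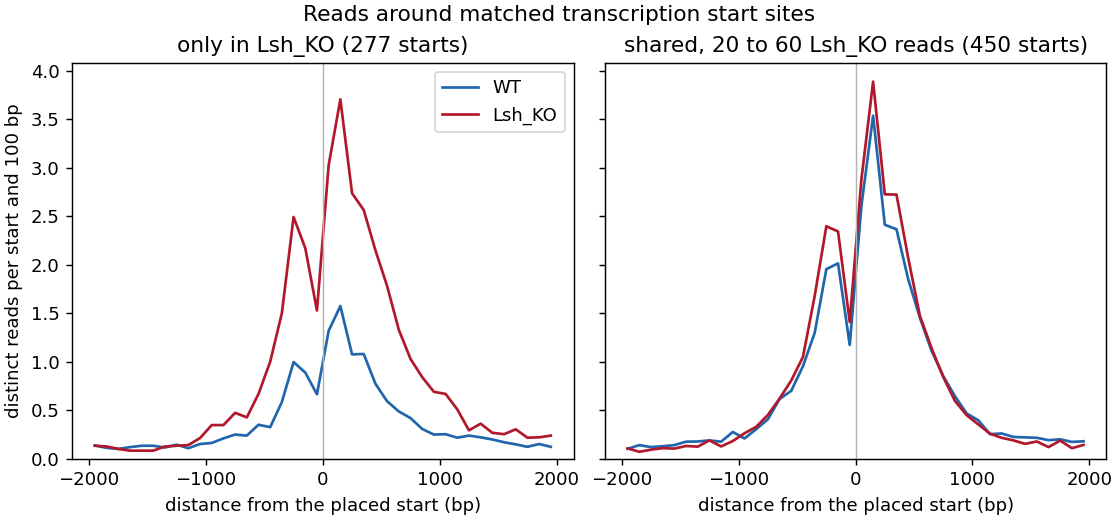
Distinct reads per start in bins of 100 bp (y axis) by distance from the placed start in bp (x axis), for 277 matched regions of the set (left) and 450 matched shared regions of 20 to 60 Lsh_KO reads (right); blue is WT and red Lsh_KO. On the left the Lsh_KO line reaches 3.70 and the WT line 1.57 in the same bin, and on the right the lines nearly meet, at 3.89 and 3.54.

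CpG-rich regions made up a smaller share of the set than of shared regions in the same range of Lsh_KO reads. CpG-rich here means that a region's reads had over 50% GC and an observed over expected CpG above 0.6. This share was 39.7% (36.6 to 42.9) in the set and 39.9% (36.5 to 43.4) in its 809 regions of 20 to 60 reads, against 62.9% (60.1 to 65.7) in shared regions of 20 to 60 reads and 70.3% in all shared regions. It was 42.5% (38.5 to 46.6) in WT-only regions, so a lower CpG content was not seen on the Lsh_KO side alone. Observed over expected CpG below 0.3 was found in 18.1% of the set and 18.7% of its regions of 20 to 60 reads, in 8.58% of shared regions of 20 to 60 reads and in 23.1% of WT-only regions. The median observed over expected CpG was 0.55 in the set, 0.53 in WT-only regions and 0.69 in shared regions of 20 to 60 reads.

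**Figure D3:**
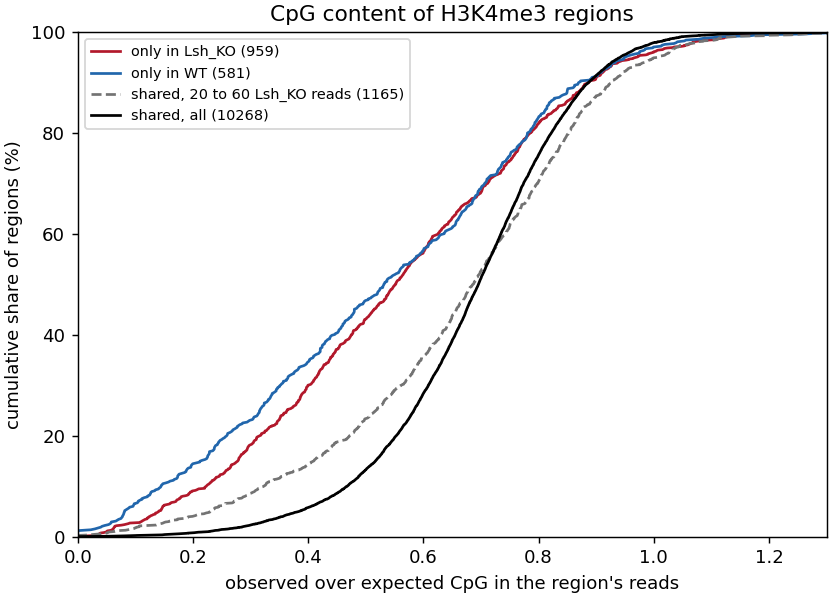
Cumulative share of regions (y axis, %) by observed over expected CpG of their reads (x axis) for the set, WT-only regions, shared regions of 20 to 60 Lsh_KO reads and all shared regions. The lines of the 2 unshared sets lie close together and to the left of both shared sets, with medians of 0.55 and 0.53 against 0.69 and 0.70.

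Within the set, regions with more CpG were more often matched to a promoter and had lower ratios. Regions with observed over expected CpG below 0.2 (87 regions) had a matched promoter in 8.64% of cases and a median scaled ratio of 2.02. Those of 0.8 or above (174 regions) were matched in 45.4% of cases and had a median ratio of 1.57. Between the same classes matching also rose in WT-only regions, from 6.02% to 40.8%, and in shared regions of 20 to 60 reads, from 23.9% to 45.6%. The ratios come from the counts that chose the set and describe it only. Among the regions at least 2-fold higher, 29.9% were CpG-rich. Reads with a 16-base word seen at 50 or more places, a sign of repeats, occurred in 21 regions (2.19%, 1.36 to 3.33). In the range of 20 to 60 reads the share was 1.73% in the set and 2.23% in shared regions. The deposited read lists hold reads with a position, so repeats whose reads could not be placed are not covered.

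Of the 277 RefSeq promoter sequences matched to the set at any read number (250 bases before to 50 after the start), 51.6% (45.6 to 57.6) were CpG-rich, against 68.2% (63.7 to 72.5) of the 450 matched to shared regions of 20 to 60 reads, 53.4% of those matched to WT-only regions and 33.3% of all 32851 promoters. The letters TATAAA, searched on the gene's strand in the 50 bases before the start, were found in 7 of 277 (2.53%, 1.02 to 5.14), against 0.889% and 2.25% in those sets and 2.63% of all promoters. GGGCGG, the core of the site of Sp1, was found on either strand of 61.4%, against 67.8%, 64.0% and 35.7%. CCAAT was found on either strand of 36.1%, against 28.9%, 25.8% and 37.4%. A match of letters is a description and not a site.

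The highest ratios were at regions that WT nearly lacked. At chr11:51063001-51064800 Lsh_KO had 129 reads and WT 0. The scaled ratio was 29.0 with WT set to a floor of 3 reads, and the interval at 0 WT reads began at 23.2. This region matched Platr20, a noncoding transcript first listed with pluripotent cells, and the overlapping model Gm12569. Zfp951, a zinc finger gene, had 68 and 0 reads at chr5:105099601-105100800, a ratio of 15.3 with the same floor and an interval from 12.1. The read lists held 66 Lsh_KO reads there, of which 31 were distinct in position and strand. At the Platr20 region they held 110, of which 65 were distinct. Background reads within 50 kb of the Zfp951 region, outside regions and scaled by their library totals, were themselves 3.25-fold higher in Lsh_KO. Beside Platr20 they were 2.08-fold higher, and the part of this in each region's ratio was not tested. At Tspan8, which encodes a membrane tetraspanin, a region 0.207 kb from the start (chr10:115221601-115222800) had 74 and 0 reads, with a flank ratio of 1.74.

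Slc38a4, an amino acid transporter gene that is imprinted in mouse, had 134 Lsh_KO and 5 WT reads at chr15:96882001-96884000, a scaled ratio of 18.1 (7.55 to 56.5). Cxcl15, a chemokine of lung epithelium, had 117 and 4 reads at chr5:91869601-91872800, a ratio of 19.7 (7.49 to 73.5). Krt18, the type I keratin of simple epithelia, had 92 and 5 reads at chr15:101855801-101857600, a ratio of 12.4 (5.12 to 39.1). Krt14, the keratin of basal epidermal cells, had 34 and 0 reads at chr11:100022201-100023000. Its ratio was 7.64 with WT set to the floor of 3 reads, with an interval from 5.88. The flank ratio was 1.47 at Cxcl15, 1.08 at Slc38a4 and 0.81 at both Krt18 and Krt14.

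Several leading regions had no matched promoter. The region at chr8:77728601-77730000 had 147 Lsh_KO reads and 1 WT read, a ratio of 99.0 whose interval ran from 17.5 to 3938, and lay 39.2 kb from the placed start of Isx. At chr11:83039801-83042400 the counts were 228 and 3 (51.2, 17.3 to 250.1), 32.3 kb from the start of Slfn3. At chr17:37603401-37604800 they were 161 and 2 (54.2, 14.8 to 452), 71.8 kb from Olfr128, and at chr15:88423601-88425000 they were 120 and 1 (80.8, 14.2 to 3219), 3.07 kb from Zdhhc25. Their flank ratios were 1.80, 2.26, 2.00 and 1.28, each above the median of 1.05 in the set. At chr11:70036201-70038000, with 140 and 2 reads, the flank ratio was 0.84.

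**Figure D4:**
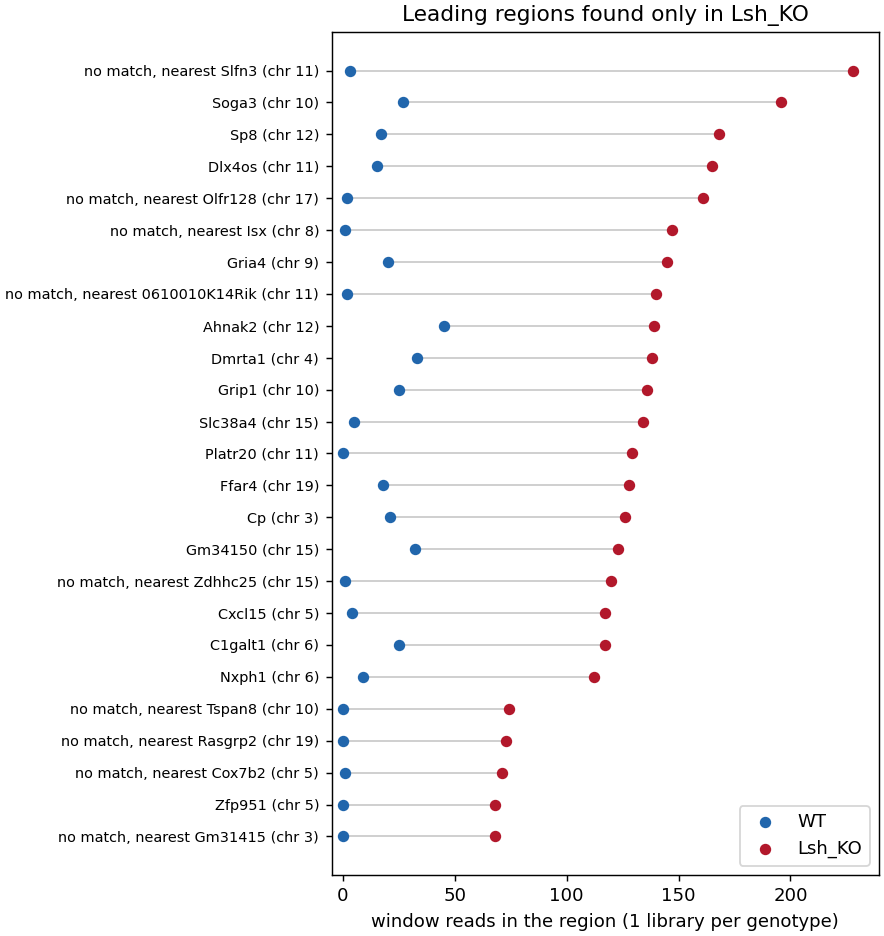
Window reads (x axis) in WT (blue) and Lsh_KO (red) for the regions with the highest lower bounds of the ratio and the matched regions with most Lsh_KO reads, named by the matched gene or, without a match, by the nearest placed start; each genotype is 1 library. Lsh_KO points run from 68 to 228 reads and WT points from 0 to 45.

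Of the 15 matched regions with most Lsh_KO reads, Platr20, Slc38a4 and Cxcl15 had 0 to 5 WT reads, as given above, and the other 12 had 9 to 45. Soga3 had 196 and 27 reads at chr10:28832601-28834400. Sp8, a zinc finger transcription factor of limb and brain development, had 168 and 17 at chr12:119290801-119293400, a ratio of 6.66 (4.04 to 11.7). Dlx4os, a noncoding gene beside the homeobox gene Dlx4, had 165 and 15 at chr11:94960801-94962400 (7.41, 4.36 to 13.5). Gria4, which encodes an AMPA receptor subunit, had 145 and 20, and Grip1, which encodes a protein that binds such receptors, 136 and 25. Nxph1, a secreted ligand of neurexins, had 112 and 9. Dmrta1, a transcription factor of the DM domain family, had 138 and 33, and Ffar4, a receptor for long-chain fatty acids, 128 and 18. Cp, the gene of ceruloplasmin, had 126 and 21, and C1galt1, an enzyme that extends O-linked glycans, 117 and 25. Ahnak2, which encodes a large scaffold protein, had 139 and 45, and Gm34150 had 123 and 32. These gave the lowest ratios among the 15, 2.08 and 2.59. The flank ratio was 2.26 at Gria4, 2.17 at Nxph1, 1.96 at Cp and 1.57 at C1galt1. It lay between 0.80 and 1.03 at 7 others, and the flanks of Soga3 held 102 Lsh_KO and 81 WT reads. The part of the higher flanks in these ratios was not tested.

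The region with most reads, chr18:86528201-86531800, had 470 Lsh_KO and 30 WT reads over 3600 bp, a ratio of 10.6 (7.29 to 15.8) with a flank ratio of 2.72. The region that follows it by reads, chr11:99959401-99962200, had 417 and 35 (8.03, 5.68 to 11.7) with a flank ratio of 0.94. A region equally wide as the first, chr12:50259201-50262800, had 237 and 43 reads and lay 1308 kb from the nearest placed start, that of Prkd1. The third by width, chr13:120611001-120614400 (3400 bp), had 116 and 16 reads and lay 3.66 kb from the start of Tmem267.

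Listed genes were counted beside the share of all placed genes in the set, 1.8%. A gene was counted only when at least 2 read positions in its promoter lay inside a region. A gene with reads around its start can therefore be in neither the set nor a shared region. Sparc, with 273 Lsh_KO and 157 WT reads, was such a case. Germline genes that DNA methylation keeps silent in somatic cells had none of 13 placed genes in the set and none in a shared region. Tex14 had 99 Lsh_KO and 63 WT reads in the 2 kb around its start, Mov10l1 had 30 and 2, Rpl10l 15 and 0, and Dazl 1 and 6. Olfactory and vomeronasal receptor genes had none of 229. None of 7 placed interferon response genes and none of 10 genes of CpG methylation was in the set. Of 55 chemokine and cytokine genes with a placed start, Cxcl15 was the 1 in the set, and of 42 keratin and keratin-associated genes Krt14 and Krt18. Both keratins are also epithelial markers, of which 4 of 10 were placed. Epcam, another, had 34 Lsh_KO and 28 WT reads around its start and Cldn3 5 and 15. Across the 4 epithelial markers the level ran from 5 to 85 reads in Lsh_KO and from 3 to 28 in WT, and the part of epithelial cells in these values was not tested. Neural (5 of 9 placed), endothelial (2 of 8) and pluripotent or trophoblast markers (5 of 8) had no gene in the set.

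Zinc finger genes named Zfp had 11 of 289 placed genes in the set and 211 in shared regions. Besides Zfp951, the largest gap was at Zfp941, with 53 Lsh_KO and 3 WT reads (11.9, 3.86 to 59.5). The flank ratio at Zfp941 was 1.07. The other 9 had 23 to 72 Lsh_KO and 4 to 30 WT reads. For Zfp940, Zfp868, Zfp85, Zfp619 and Zfp935 the interval of the ratio included 1. Near-identical copies are common in this family, and reads that fit several copies may be missing.

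The list of imprinted genes, which does not hold Slc38a4, had 1 of 17 placed genes in the set. Mkrn3, which encodes a ubiquitin ligase expressed from the paternal copy, had 94 Lsh_KO and 24 WT reads (2.64, 1.67 to 4.32) at chr7:62298201-62299600, with a flank ratio of 1.25. Snrpn of the same chromosome had 16 and 9 reads around its start. Peg3 had 94 and 134, and Plagl1 32 and 70, so the imprinted genes differed in direction.

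Hox genes had 2 of 22 in the set: Hoxd8 with 53 and 18 reads and Hoxd3 with 55 and 13 (2.85, 1.54 to 5.69). Both regions also matched a promoter of Gm38462. The flank ratios were 0.64 and 0.70. On chromosome 6, 3 further regions of the set lay between chr6:52150801 and 52170000, with no matched promoter, 0.437 kb from Hoxa10 (56 and 4 reads), 1.15 kb from Hoxa9 (59 and 8) and 2.65 kb from Hoxa7 (44 and 15). Hoxb3os, in a shared region, had 67 Lsh_KO and 200 WT reads, and the medians over the 22 placed Hox genes were 16.5 and 14.5 reads in the 2 kb around the start.

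Cdkn2a, the gene of the cell cycle inhibitors p16Ink4a and p19Arf, has 2 start sites. The downstream start, placed at position 88753423 of chromosome 4 and used for p16Ink4a, lay in a region of the set with 32 Lsh_KO reads and 1 WT read (21.6, 3.60 to 878) and a flank ratio of 1.01. The upstream start, at 88765850, lay in a shared region with 360 and 259 reads. The other 5 placed genes on the list of cell cycle inhibitors were not in the set. Cdkn1a had 111 and 103 reads around its start, and Trp53 had 301 and 178.

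Replication-dependent histone genes, a list added after values were seen, had 5 of 40 placed genes in the set. H4c8 had 99 Lsh_KO and 42 WT reads, H1f3 77 and 34, H2bc6 67 and 24, H2ac15 46 and 17, and H2ac18 34 and 18. Scaled ratios of these 5 ran from 1.27 to 1.88, and the interval of H2ac18 included 1. Their flank ratios, which have another scale, were 1.29 to 1.56. The largest group of neighbouring regions of the set was the 7 regions between chr13:23512801 and 23629600, which hold H4c8, H1f3 and H2bc6, with 424 and 174 reads together. Histone genes are near-identical copies of each other, so reads there may be split or missing.

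Most regions of the set were isolated. Joined across 50 kb they formed 873 groups, of which 809 were single regions, 52 pairs and 12 groups of at least 3. Besides the histone and Hoxa groups, 3 regions on chromosome 14 around Zic5, a zinc finger transcription factor of neural development, held 371 and 78 reads. Another 4 regions, between chr13:21724401 and 21762400, matched H2ac15 or lay within 1 kb of the starts of H2ac13, H4c11 and H4c12, and held 212 and 62 reads.

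The targeted gene was checked at its own promoter. The start of Hells, placed at 38996134 of chromosome 19, lay in a shared region with 243 Lsh_KO and 178 WT reads, and the mark was thus present at the promoter in the library labelled Lsh-/-. The labels do not say which part of the gene was removed, so the value does not check the genotype. A region of the set, chr19:39012201-39012800, began 16.1 kb downstream of this start, with 32 Lsh_KO and 0 WT reads. Its scaled ratio was 7.19 with WT set to the floor of 3 reads, and its relation to the engineered allele was not tested.

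The share of regions without a WT region differed between chromosomes, and it moved with the ratio of background reads. On chromosome 18, 56 of 336 Lsh_KO regions were in the set, 16.7% (12.8 to 21.1), and on chromosome 16, 13 of 350, 3.71% (1.99 to 6.27). The background log2 ratio of Lsh_KO to WT, over reads outside regions, was 0.50 on chromosome 18 and -0.43 on chromosome 16. Chromosome 6 had 11.7% and 0.27, and chromosome 4 had 4.66% and -0.25. Across the 19 chromosomes Pearson's r was 0.863 and Spearman's rho 0.747, and without chromosomes 16 and 18 they were 0.686 and 0.647; chromosomes share both libraries, so this is a description. Copy number was not measured. With the WT limits lowered, which left 456 of the 959 regions on all chromosomes, the shares became 9.52% on chromosome 18 and 1.71% on chromosome 16. With the background ratio of the surrounding 5 Mb in the scaling, 22 of the 56 regions of chromosome 18 were at least 2-fold higher, against 32 without it. In the whole set of 959 the counts were 356 with it and 361 without it.

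**Figure D5:**
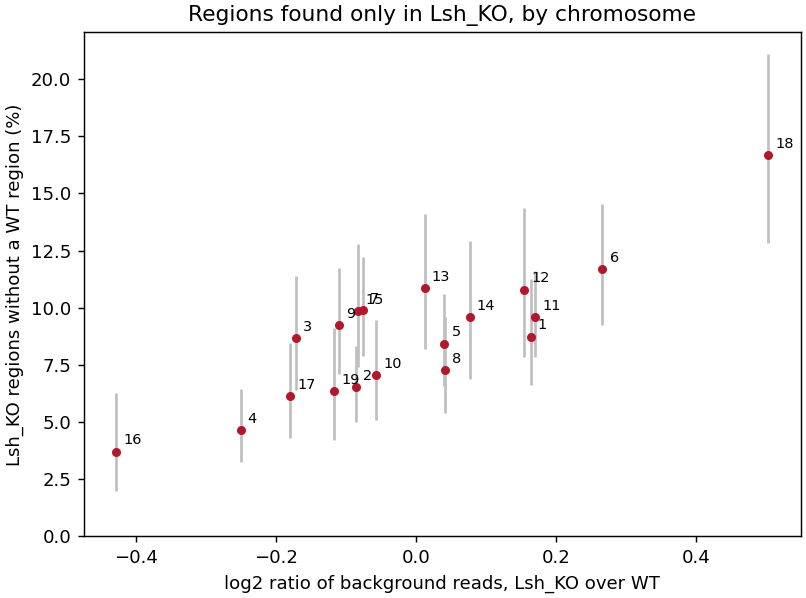
Share of Lsh_KO regions without a WT region (y axis, %, bars are exact 95% intervals of counting error) by the log2 ratio of background reads, Lsh_KO over WT (x axis), 1 point per chromosome. Chromosome 18 lies highest and farthest right at 16.7% and 0.50, chromosome 16 lowest and farthest left at 3.71% and -0.43.

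The surroundings of the regions were covered in both libraries. Every region of the set had at least 6 WT reads within 50 kb on either side, outside regions. A shorter stretch not covered in WT, at the region itself, would pass this check, and 26 regions had 0 WT reads. The median ratio of these flanks, scaled by total background reads, was 1.05 (quartiles 0.86 and 1.27), against 0.96 in shared regions. A flank ratio of at least 2 was found beside 34 of 959 regions of the set (3.55%) and 33 of 10268 shared regions (0.321%).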

How the data were processed

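H3K4me3 ChIP-seq of fibroblasts, with 1 WT and 1 Lsh_KO library, was analysed. Per the file headers, the authors deposited whole-number read counts for 200 bp windows. The build is mm8, per the submitters' processing notes; the aligner and the rule behind the counts are not given in the sources used here. No normalization of the counts was found. The deposited read lists give for each 25-base read its position, strand, bases, match code and an alignment score, and no filter was put on the score. These window lists hold 1550072 WT and 1706687 Lsh_KO reads beyond the distinct reads of the read lists, of an origin not given.

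Regions came from the window counts by the rule in the report. The Lsh_KO over WT ratio was divided by the median ratio of shared regions (1.48), with an exact conditional 95% interval. Base composition came from read lists with 1 read per position and strand (2389871 WT and 2694333 Lsh_KO reads), turned into reference bases by the match code and moved 75 bp; on chromosome 19 the code's letter equalled the overlapping reads without mismatch at 100% of 14411 bases. Promoters were placed by 25-base matches found at 1 place, on the same chromosome, with at least 2 positions inside a region. Flanks are window reads within 50 kb, outside regions, and background bins are 5 Mb. Named regions came mostly from the 12 with most Lsh_KO reads, the 12 with the highest lower bound and the 15 matched with most reads. Those matched to a listed gene, the 3 widest and those nearest a threshold were also drawn on. Not every region picked this way is named. Ratio calls, region building and promoter placing were tested on simulated data. The set and the gene lists were chosen with earlier results of these data known. Alternatives covered region limits, scaling, read source, CpG limits and match rules. Clustered protocadherins and haemoglobins had no placed promoter, no miRNA hairpin was matched to the set, and chromosomes X and Y were not analysed here. The tools were Python 3.11.15 with pandas 2.3.3, numpy 2.4.6, matplotlib 3.10.9 and scipy 1.17.1.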

Additional observations from a re-analysis of the deposited data

How the results depend on the processing

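No paired analysis was possible because each genotype had 1 library. The number of regions without a WT region was between 954 and 1182 under 7 of 9 alternatives to the main 959, and moved to 456 with lower limits for WT and to 1513 with read lists of 1 read per position and strand. The median scaled ratio of 1.77 became 2.35 with scaling by all window reads, 1.84 with only reads that the read lists do not hold and 2.05 in regions of at least 40 reads; with the other 3 it lay between 1.70 and 1.71. The CpG-rich share of 39.7% became 29.4% with limits of 55% GC and 0.65, and 29.9% in regions at least 2-fold higher. The matched share of 30.7% became 34.7% with 1 position, 23.7% with at least 4, 37.9% with reads within 500 bp and 42.4% in regions of at least 40 reads. The share with repeat-like reads of 2.19% became 5.74% with words seen at 20 places. Regions at least 2-fold higher numbered 561 with scaling by all window reads in place of 361. The chromosome shares became 9.52% (chromosome 18) and 1.71% (chromosome 16) with lower WT limits. The remaining alternatives, 16 of 31 in all, moved values by less than their interval or 1.5 times. The alternatives on lower WT limits by chromosome, on regions at least 2-fold higher and on leaving out chromosome 18 were chosen after seeing the data, and the cause of each move was not tested. The low reads per region limit every ratio: at 20 Lsh_KO reads WT had 0 to 23.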
